A study of Mus musculus with 15 samples.

Results

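The thoracic aorta of mice on a high-phosphate diet was compared with the thoracic aorta of mice on standard chow, across all genes measured. The comparison uses the 7 of 15 arrays whose titles name the thoracic segment (spelled "thoaric" or "thoraric" there), 3 from the high-phosphate group and 4 from the chow group. The other 8 arrays are of the abdominal aorta and enter here only in the fit and in the comparison of segments. One value per gene was used, and 22180 genes were tested.

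The mice were DBA/2NCrl and entered the study at 8 weeks of age. The high-phosphate diet (HPD) held 20.2 g of phosphorus per kg and the standard chow diet (SCD) 7.0 g per kg, and each was fed for 5 days. The titles call the arrays biological replicates, but the labels do not say whether an array holds 1 mouse or a pool, whether the segments share mice, or of which sex the mice were. Total RNA of homogenized aorta was amplified, labelled with biotin and hybridised, so each value averages all cells of the segment and of the tissue left on it. Values below are log2 intensities, changes are log2 differences (high phosphate minus chow) ± SE from limma, and a gene is said to rise or fall only when its p, adjusted by Benjamini-Hochberg over all genes, was under 0.05. With 3 and 4 arrays, precision is limited by their number.

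Excess phosphate is a known driver of calcification of the arterial wall, where smooth muscle cells can take on features of bone cells. The thoracic aorta is wrapped in perivascular fat that in rodents resembles brown fat, a tissue dense in mitochondria that burns fatty acids and makes heat through the uncoupling protein Ucp1. Glucocorticoids, the adrenal hormones of stress and fasting, act through a nuclear receptor that binds DNA as a dimer and induces a set of target genes in most tissues.

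The promoters of 5 genes that changed are shown because they hold the letters of a binding motif of a factor whose target genes were listed. They are the 250 bases before the gene start in RefSeq on GRCm38.p6, written 5′ to 3′ on the gene's strand with the matched letters in capitals. The first is Slc10a6, a carrier of sulfated steroids and the gene with the smallest p of the comparison (chr5:103629404-103629653, minus strand), the second Map3k6, a stress kinase (chr4:133240568-133240817, plus strand), and the third the metallothionein Mt1 (chr8:94178839-94179088, plus strand). In these 3 the capitals mark the letters of a glucocorticoid response element, GNACA and TGTNC with 3 free bases between them, which begin 163, 181 and 94 bases before the start.

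Slc10a6: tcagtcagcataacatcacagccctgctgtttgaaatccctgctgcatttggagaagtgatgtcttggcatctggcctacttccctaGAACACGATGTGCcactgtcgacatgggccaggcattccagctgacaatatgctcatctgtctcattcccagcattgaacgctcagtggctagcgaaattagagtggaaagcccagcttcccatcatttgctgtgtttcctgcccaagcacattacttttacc
Map3k6: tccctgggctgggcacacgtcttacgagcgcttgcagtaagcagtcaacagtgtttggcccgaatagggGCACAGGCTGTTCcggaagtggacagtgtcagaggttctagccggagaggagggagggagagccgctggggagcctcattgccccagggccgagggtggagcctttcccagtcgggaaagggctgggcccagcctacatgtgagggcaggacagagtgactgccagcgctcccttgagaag
Mt1: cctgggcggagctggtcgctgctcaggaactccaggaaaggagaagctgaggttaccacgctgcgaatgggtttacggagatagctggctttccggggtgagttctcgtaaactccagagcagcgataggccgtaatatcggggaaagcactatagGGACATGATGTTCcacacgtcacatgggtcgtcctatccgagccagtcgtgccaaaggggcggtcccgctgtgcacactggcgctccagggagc

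The fourth promoter is that of Hmgcs1, the cholesterol synthesis enzyme that forms HMG-CoA (chr13:119690101-119690350, plus strand), with TCACCCCAC, the letters of a sterol regulatory element, 137 bases before the start. The last is that of Ciart, a repressor of the circadian clock (chr3:95882229-95882478, minus strand), with the E-box CACGTG, to which clock proteins bind, 116, 58 and 44 bases before the start.

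Hmgcs1: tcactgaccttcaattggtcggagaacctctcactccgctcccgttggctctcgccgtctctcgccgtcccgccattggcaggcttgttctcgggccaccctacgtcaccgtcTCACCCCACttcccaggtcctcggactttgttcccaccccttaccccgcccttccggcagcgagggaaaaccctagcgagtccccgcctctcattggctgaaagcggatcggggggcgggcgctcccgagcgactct
Ciart: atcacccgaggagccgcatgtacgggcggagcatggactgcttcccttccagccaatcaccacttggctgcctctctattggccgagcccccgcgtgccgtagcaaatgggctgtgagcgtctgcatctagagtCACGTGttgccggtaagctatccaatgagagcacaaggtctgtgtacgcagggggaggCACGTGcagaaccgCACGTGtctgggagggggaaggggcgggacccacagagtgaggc

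A promoter was found for 16990 of the measured genes. Both strands were searched, and none of the motifs overlaps another in these 5 windows. The glucocorticoid letters stood in 70 of all windows (0.412%), in 4 of the 254 windows of genes that rose (1.57%, those of Map3k6, Mt1, Slc10a6 and Txnip) and in 0 of the 190 windows of genes that fell. The sterol letters stood in 85 of all windows (0.5%) in 1 of 254 for genes that rose (0.394%) and in 3 of 190 for genes that fell (1.58%). The E-box stood in 1165 of all windows (6.86%), in 30 of 254 for genes that rose (11.8%) and in 11 of 190 for genes that fell (5.79%). These matches describe letters in a window and do not show that a factor binds there.

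The defining genes of the wall were measured in every thoracic array, with smooth muscle actin Acta2 between 11.78 and 12.08 and the smooth muscle myosin Myh11 between 11.28 and 11.49, in a table whose values run from 1.381 to 13.33. Some arrays carried genes of other tissues. With the mean of the skeletal muscle list as a covariate 290 genes were called in place of 548, and without both thoracic arrays numbered 3, which had the highest lung and airway means, 245. For the other tissues named here, the part in the results was not tested. HPD array 3 had the keratin Krt4 at 11.11, against 4.62 to 5.09 in the other 6 thoracic arrays, and the fast myosin Myh8 at 11.17, against 8.22 in HPD array 1 and 5.80 to 6.05 in the others. SCD array 3 had the airway protein gene Scgb1a1 at 11.74 and HPD array 2 at 8.03, against 4.70 to 5.17 in the others. HPD array 2 also had the neuronal gene Snap25 at 8.66, against 4.67 to 5.13 elsewhere. The albumin gene Alb was at 9.27 in SCD array 4 and 7.80 in SCD array 1, against 5.24 to 5.74 in the other 5. The summed level of each whole list is given as its mean over members. For 20 skeletal muscle genes it ranged from 5.88 to 7.18 in the HPD arrays and from 5.60 to 6.27 in the SCD arrays, and for 12 lung and airway genes from 4.77 to 6.18 and from 4.84 to 6.03. For 20 sympathetic and chromaffin genes it was 6.68 in HPD array 2 and 5.57 to 5.78 in the others. Correlations between arrays of a group, across genes, were 0.981 to 0.991 on high phosphate and 0.985 to 0.992 on chow. On the first principal component HPD array 3 lay at -37.6, HPD arrays 1 and 2 at -4.74 and -9.49, and the SCD arrays between 4.17 and 19.4. Counts of gene lists are therefore also given without HPD array 3.

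**Figure D1:**
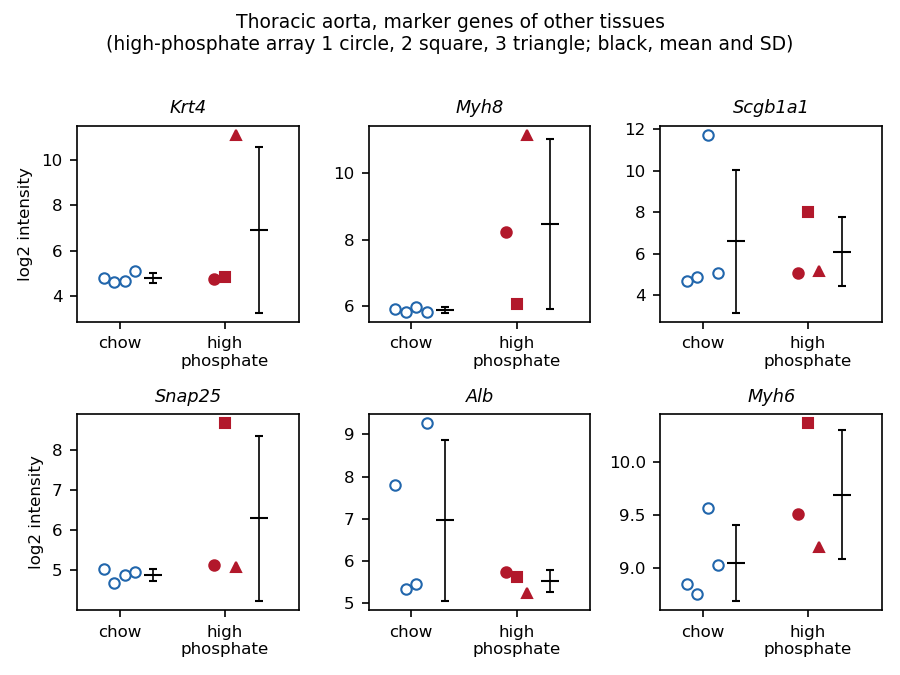
Log2 intensity of 6 marker genes of other tissues in each thoracic array, 4 on chow (open circles) and 3 on high phosphate (filled symbols, 1 shape per array), with the mean and SD of each group in black. Krt4 and Myh8 are highest in HPD array 3, Snap25 and Myh6 in HPD array 2, and Scgb1a1 in SCD array 3.

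The comparison asks which genes of the thoracic aorta differ after 5 days of phosphate-rich food. Among 28 genes of the glucocorticoid response 12 rose, among 43 of foreign-compound metabolism 7 and among 36 of the amino acid transporter families 6. Among 32 subunits of complex I of the respiratory chain 20 fell, among 20 genes of fatty acid oxidation 7 and among 19 thermogenic genes of brown fat 7. Of 22180 genes 548 passed the test (2.47%), 309 higher (1.39%) and 239 lower (1.08%), of which 42 and 25 changed at least 2-fold. The median change of all genes was -0.01, and the median size of change among the called genes was 0.56. In 542 of the called genes the 3 HPD arrays and the 4 SCD arrays did not overlap, as in 3052 of all genes (13.8%). A further measure of the background is that 3051 genes (13.8%) had an unadjusted p under 0.05.

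The count of 548 depends on single arrays. It was 245 without HPD array 2, 263 without HPD array 3, 209 without SCD array 1, 327 without SCD array 2 and 265 without SCD array 4, against 488 and 541 without HPD array 1 and SCD array 3. In all 7 of these fits 139 genes kept their call, 86 higher and 53 lower, and the genes described first in each group below are of this kind unless an array is named.

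**Figure D2:**
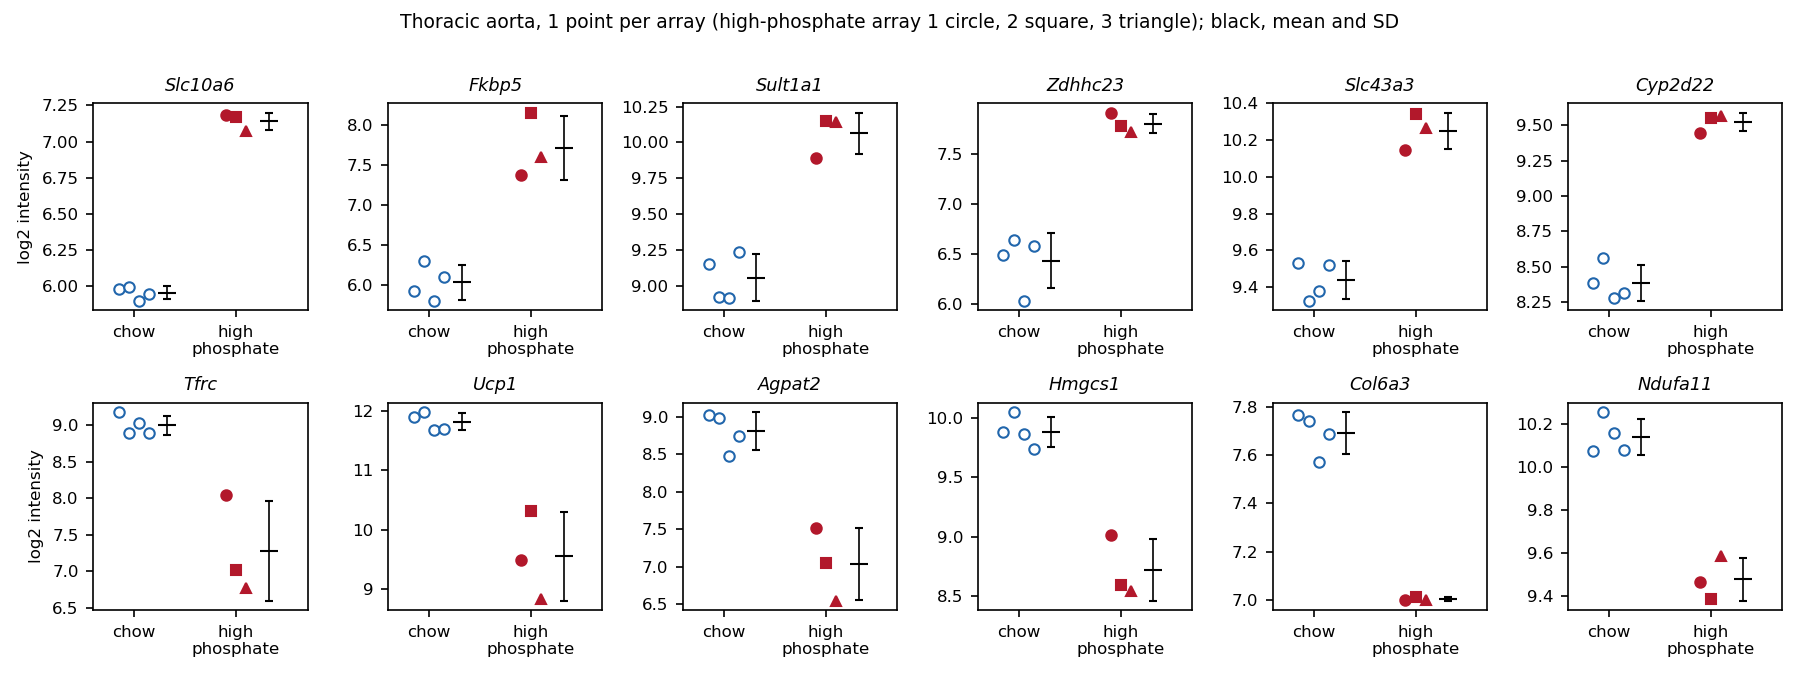
Log2 intensity of 12 genes in each thoracic array, 4 on chow (open circles) and 3 on high phosphate (filled symbols, 1 shape per array), with the mean and SD of each group in black; axes differ between panels. In each panel the groups do not overlap, as for Slc10a6 with 7.08 to 7.18 against 5.90 to 6.0. The same holds for 542 of the 548 called genes.

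Target genes of the glucocorticoid receptor gave the highest number of rises among the gene lists. These lists were chosen with earlier results of these data known, so their counts are no independent test. Of 28 measured genes of the receptor and its targets 12 rose and 1 fell, with a median change of 0.66, and without HPD array 3 the counts were 9 and 0 with a median of 0.71. The median of the list, relative to each gene's chow mean, was 0.65, 0.77 and 0.70 in HPD arrays 1, 2 and 3 and between -0.14 and 0.05 on chow. The 3 arrays thus stood close together and clear of the chow arrays. The count of rises fell to 6 without HPD array 2 and to 7 without SCD array 4.

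The receptor gene itself, Nr3c1, measured 8.73, 8.55 and 8.45 on high phosphate and 9.0, 8.99, 8.87 and 8.91 on chow. It was lower in all HPD arrays and fell by 0.37 ± 0.0898 on the log2 scale (adjusted p = 0.0445), a call that ended when any array but HPD array 1 was left out (adjusted p up to 0.189). Fkbp5, which holds the receptor back in the cytoplasm and is induced by it, measured 7.37, 8.15 and 7.60 against 5.92, 6.30, 5.80 and 6.10. The groups were far apart, and the rise was 3.21-fold (1.68 ± 0.176, adjusted p = 0.000384).

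Slc10a6, which is in none of the lists, measured 7.18, 7.17 and 7.08 on high phosphate and 5.98, 6.0, 5.90 and 5.95 on chow. Each group was tight and the groups were far apart, and the gene rose 2.27-fold (1.19 ± 0.087, adjusted p = 1.8e-05). Map3k6 measured 6.72, 7.10 and 6.55 against 5.67, 5.84, 5.62 and 5.93 and rose 2.04-fold (1.03 ± 0.134, adjusted p = 0.00133). Sult1a1, a sulfotransferase for phenols, measured 9.89, 10.15 and 10.14 against 9.15, 8.92, 8.92 and 9.24 and rose 2.01-fold (1.01 ± 0.134, adjusted p = 0.00146). All 3 genes were higher in each HPD array than in any SCD array. Fam107a, an actin-binding protein gene induced by stress hormones, measured 8.96, 8.80 and 8.80 against 7.40, 6.79, 7.13 and 7.64, again without overlap.

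The metallothioneins bind zinc and copper and are induced by glucocorticoids and by metals. Mt1 measured 10.04, 10.41 and 10.22 on high phosphate and lay between 9.38 and 9.44 on all 4 chow arrays. It rose 1.76-fold (0.82 ± 0.154, adjusted p = 0.0123), and the call ended without HPD array 2 (adjusted p = 0.0652). Mt2 measured 10.71, 11.58 and 10.98 against 9.42, 9.25, 9.20 and 9.59, so that it too was higher in every HPD array.

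Other members that rose were less stable. The inhibitor of NF-kappaB Nfkbia rose by 0.56 ± 0.115, the transcription factors Klf9 and Zbtb16 by 0.64 ± 0.133 and 1.14 ± 0.22, the salt-regulating kinase Sgk1 by 0.68 ± 0.144, the glutathione peroxidase Gpx3 by 0.69 ± 0.152 and the receptor inhibitor Errfi1 by 1.01 ± 0.226. Each lost its call in at least 1 of the 7 fits with an array left out, with adjusted p up to 0.138. HPD array 2 was among the arrays in question for all of them but Nfkbia, which lost it without HPD array 3, SCD array 2 or SCD array 4.

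Several familiar targets did not pass. Tsc22d3, an anti-inflammatory leucine zipper protein, changed by 0.39 ± 0.119 (adjusted p = 0.105), although its HPD arrays (6.19, 6.41 and 6.26) lay above its SCD arrays (6.03, 6.06, 5.67 and 5.82). Per1, a target shared with the clock, changed by 0.89 ± 0.229 (adjusted p = 0.0563) and the serpin Serpina3n by 1.60 ± 0.415 (adjusted p = 0.0574), the latter with HPD array 2 at 10.75 and the others at 8.87 and 9.28. The phosphatase Dusp1 changed by 0.12 ± 0.138, and 2 genes of fuel use, Pdk4 and Angptl4, by -0.44 ± 0.199 and -0.39 ± 0.224. In these last 3 the groups overlapped.

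**Figure D3:**
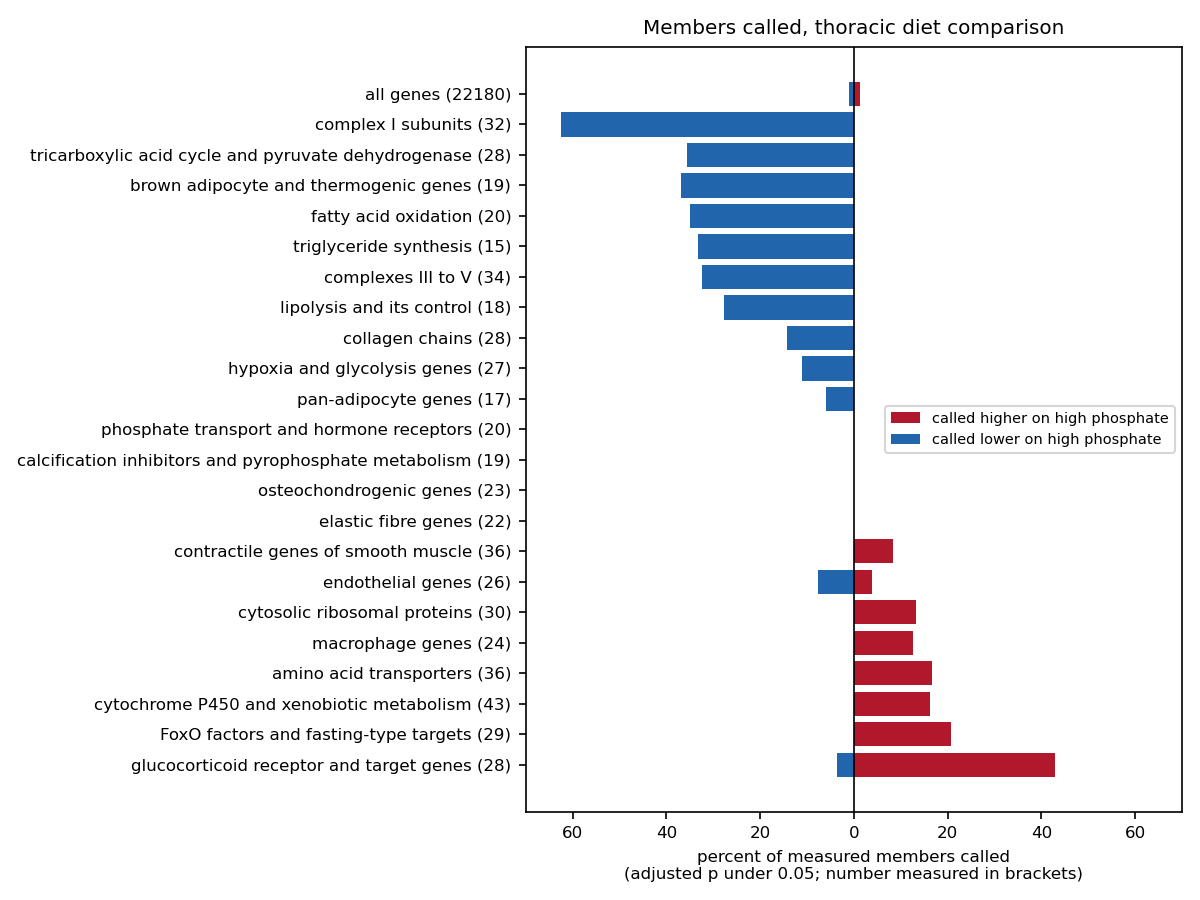
Share of the measured members of each gene list that was called higher (red, to the right) or lower (blue, to the left) on high phosphate, in percent of the number measured, given in brackets. Among the lists drawn, the largest shares are 20 of 32 complex I subunits called lower and 12 of 28 glucocorticoid receptor and target genes called higher, and the bar for all genes shows 1.39% and 1.08%.

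FoxO transcription factors turn on genes of fasting, and such genes rose in part. Of 29 measured members 6 rose and 0 fell, with a median change of 0.12, and 3 rose without HPD array 3. Depp1, a FoxO target, measured 8.00, 8.95 and 8.73 on high phosphate and 7.22, 7.11, 7.40 and 6.91 on chow and rose 2.64-fold (1.4 ± 0.212, adjusted p = 0.0031). Trp53inp1, which promotes autophagy and is a target of p53, measured 9.24, 9.61 and 9.60 against 8.04, 8.13, 8.05 and 8.02. Both genes were higher in every HPD array, while the other members that rose, Klhl24, Sesn1, Txnip and Cited2, changed by 0.32 to 0.56 and lost their calls without HPD array 2, among others (adjusted p up to 0.202). The count of the list was 2, 3, 2, 3 and 3 without HPD array 2, HPD array 3, SCD array 1, SCD array 2 and SCD array 4. Retreg1, a receptor for autophagy of the endoplasmic reticulum, measured 8.73, 9.12 and 8.77 against 7.66, 7.81, 7.09 and 7.72 and rose 2.46-fold (1.30 ± 0.172, adjusted p = 0.00145). It was higher in every HPD array.

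Among growth factor genes the binding protein Igfbp3, which carries insulin-like growth factors, measured 8.95, 9.54 and 9.49 on high phosphate and 8.09, 7.77, 7.89 and 8.25 on chow. The groups were clearly apart, and it rose 2.51-fold (1.33 ± 0.164, adjusted p = 0.00091). The receptor Igf1r measured 7.40, 7.65 and 7.52 against 7.01, 7.12, 7.03 and 6.79 and rose by 0.54 ± 0.0963 (adjusted p = 0.00861), a call that ended without HPD array 2 (adjusted p = 0.0504). Of the 27 measured members of the insulin and insulin-like growth factor list 3 rose and 0 fell, with a median change of -0.03, and 1 rose without HPD array 2 and 2 without HPD array 3, SCD array 1, SCD array 2 or SCD array 4.

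Genes of the amino acid transporter families rose in part, and not all members of these families carry amino acids. Of 36 measured members 6 rose and 0 fell, with a median change of 0.15, and 4 rose without HPD array 3. The count was 3 without HPD array 2, SCD array 1 or SCD array 4. Slc7a8, a transporter of large neutral amino acids, measured 8.38, 9.25 and 9.18 on high phosphate and 6.61, 7.05, 6.95 and 6.40 on chow. Slc43a3, a family member that carries purine bases, measured 10.15, 10.34 and 10.27 against 9.53, 9.32, 9.38 and 9.52 and rose 1.76-fold (0.81 ± 0.0855, adjusted p = 0.000384). Slc43a1, which carries leucine and its relatives, measured 7.53, 8.26 and 7.68 against 6.76, 6.77, 6.96 and 6.82 and rose 1.99-fold (0.99 ± 0.15, adjusted p = 0.0031). In all 3 genes each HPD array exceeded each SCD array. The creatine carrier Slc6a8 (0.66 ± 0.138), the heavy chain Slc3a2 that pairs with Slc7a8 (0.57 ± 0.123) and the lysosomal sensor Slc38a9 (0.40 ± 0.0887) rose too, but lost their calls without HPD array 2, SCD array 1 or SCD array 4 (adjusted p up to 0.108), and the last 2 also without HPD array 3.

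Enzymes that modify foreign compounds and steroids rose in part. Of 43 measured members 7 rose and 0 fell, with a median change of 0.18, and between 6 and 8 rose in the fits with 1 array left out. Cyp2d22, a cytochrome P450, measured 9.45, 9.55 and 9.57 on high phosphate and 8.38, 8.56, 8.28 and 8.31 on chow and rose 2.21-fold (1.14 ± 0.113, adjusted p = 0.000335). The flavin monooxygenase Fmo2 measured 10.81, 11.05 and 11.21 against 9.63, 9.79, 9.81 and 9.65 and rose 2.46-fold (1.30 ± 0.151, adjusted p = 0.000637). Cyp1b1, a P450 of the vessel wall that oxidises estradiol, measured 8.96, 9.44 and 9.47 against 8.15, 8.17, 8.35 and 8.23 and rose 2.10-fold (1.07 ± 0.139, adjusted p = 0.00133). The groups were apart in each of these. Cyp2b10 measured 7.75, 8.59 and 8.40 against 6.25, 6.39, 6.46 and 5.53, and the N-methyltransferase Inmt 7.89, 8.74 and 8.23 against 7.37, 6.79, 7.03 and 7.39, again without overlap. Inmt rose 2.21-fold (1.14 ± 0.19, adjusted p = 0.00593). Cyp4b1, which oxidises fatty acids, rose by 0.62 ± 0.135 (adjusted p = 0.0259), a call that ended without HPD array 1, HPD array 2, SCD array 1 or SCD array 4 (adjusted p up to 0.126). Xanthine dehydrogenase Xdh, which makes uric acid and belongs to no list here, measured 7.94, 8.73 and 8.30 against 7.02 to 7.06 and rose 2.42-fold (1.28 ± 0.182, adjusted p = 0.00216).

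The clock list gave 1 rise and 1 fall among 19 measured members, with a median change of 0.10. Ciart measured 7.36, 7.49 and 7.35 on high phosphate and 6.54, 6.92, 6.42 and 6.43 on chow. Its groups did not overlap, and it rose 1.77-fold (0.82 ± 0.148, adjusted p = 0.00887). Noct, a rhythmic phosphatase of NADPH, measured 6.06, 5.36 and 5.23 against 7.25, 7.25, 6.50 and 6.60. It was lower in every HPD array and fell (adjusted p = 0.0129), but not without HPD array 2 or HPD array 3 (adjusted p up to 0.065). The output factors Tef and Dbp changed by 0.71 ± 0.182 and 0.41 ± 0.129 and the repressor Nr1d2 by 0.48 ± 0.184, with adjusted p of 0.0535, 0.119 and 0.227. The activators Arntl, Npas2 and Clock changed by -0.36 ± 0.183, -0.68 ± 0.282 and -0.24 ± 0.0995, with adjusted p of 0.42, 0.284 and 0.295. Without HPD array 3 the list had 3 rises and a median of 0.27.

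Of the thermogenic genes of brown fat, some passed the test, all lower. Of 19 measured members 7 fell and 0 rose, with a median change of -0.66, and 4 fell without HPD array 3, where the median was -0.47. The count was also 4 without SCD array 1. The list median in HPD arrays 1, 2 and 3 was -0.42, -0.53 and -1.10, against -0.12 to 0.16 on chow, so that HPD array 3 was lowest and the other 2 were also below every chow array. In bulk tissue, fewer cells of a type and less RNA per cell cannot be told apart.

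Ucp1 measured 9.49, 10.32 and 8.84 on high phosphate and 11.89, 11.97, 11.68 and 11.70 on chow. The HPD arrays were spread over more than a unit, and all were below chow. Its relative Ucp3 measured 6.36, 6.04 and 5.48 against 7.45, 7.69, 7.55 and 7.65 and fell 3.08-fold (-1.62 ± 0.185, adjusted p = 0.000581). Cox7a1, the subunit of cytochrome c oxidase found in muscle and brown fat, measured 9.58, 9.80 and 8.97 against 10.98, 10.92, 10.80 and 10.90. Both were lower in every HPD array and lowest in array 3.

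The proton channel Otop1 measured 7.01, 6.38 and 5.93 against 7.69, 7.71, 7.48 and 7.50 and fell 2.22-fold (-1.15 ± 0.204, adjusted p = 0.00838). Dio2, the deiodinase that activates thyroid hormone, measured 6.07, 5.46 and 5.81 against 6.85, 7.01, 6.58 and 6.74 and fell 2.03-fold (-1.02 ± 0.203, adjusted p = 0.0166). Neither gene overlapped between groups, and the call of Dio2 ended without HPD array 2, HPD array 3 or SCD array 1 (adjusted p up to 0.0859). Cox8b and the thioesterase Acot11 fell by 0.72 ± 0.144 and 0.41 ± 0.0942 on the log2 scale, and their calls ended without HPD array 3 or SCD array 1, and for Acot11 also without HPD array 2, SCD array 2 or SCD array 4 (adjusted p up to 0.147).

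The regulators of the brown fat program did not pass the test. Ppargc1a, the coactivator that drives mitochondrial growth, measured 9.05, 8.73 and 8.75 on high phosphate and 9.52, 10.01, 9.01 and 9.38 on chow, with a change of -0.63 ± 0.272 (adjusted p = 0.308). Prdm16, the factor that sets brown fat identity, measured 6.94, 6.99 and 6.97 against 7.03, 7.12, 7.16 and 7.21, with a change of -0.16 ± 0.113 (adjusted p = 0.6). The lipid droplet protein gene Cidea changed by -0.37 ± 0.158 (adjusted p = 0.311). The elongase Elovl3 measured 7.81, 5.93 and 6.19 against 7.50, 7.86, 8.24 and 7.50, so that HPD array 1 lay among the chow arrays.

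General markers of fat cells moved less. Of 17 measured pan-adipocyte genes 0 rose and 1, the hormone gene Retn, fell, with a median change of -0.06. The hormone gene Adipoq measured 10.21, 10.32 and 10.01 on high phosphate and 10.45, 10.45, 10.27 and 10.37 on chow, the fatty acid binding protein gene Fabp4 12.73, 12.75 and 12.68 against 12.80, 12.74, 12.76 and 12.71, and the lipoprotein lipase gene Lpl 12.17, 12.13 and 12.03 against 11.99, 12.17, 11.91 and 11.86. The groups overlapped in all 3, with changes of -0.20 ± 0.127, -0.03 ± 0.0509 and 0.13 ± 0.0919. Retn measured 8.41, 8.81 and 8.35 against 9.52, 9.01, 9.32 and 9.48 and fell by 0.81 ± 0.196 on the log2 scale (adjusted p = 0.0418), a call that held when SCD array 2 was left out and ended when any of the other 6 was (adjusted p up to 0.16). The droplet coat gene Plin1 measured 7.75, 7.43 and 6.65 against 8.29, 8.54, 7.91 and 8.07, with a change of -0.93 ± 0.237 (adjusted p = 0.0543).

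**Figure D4:**
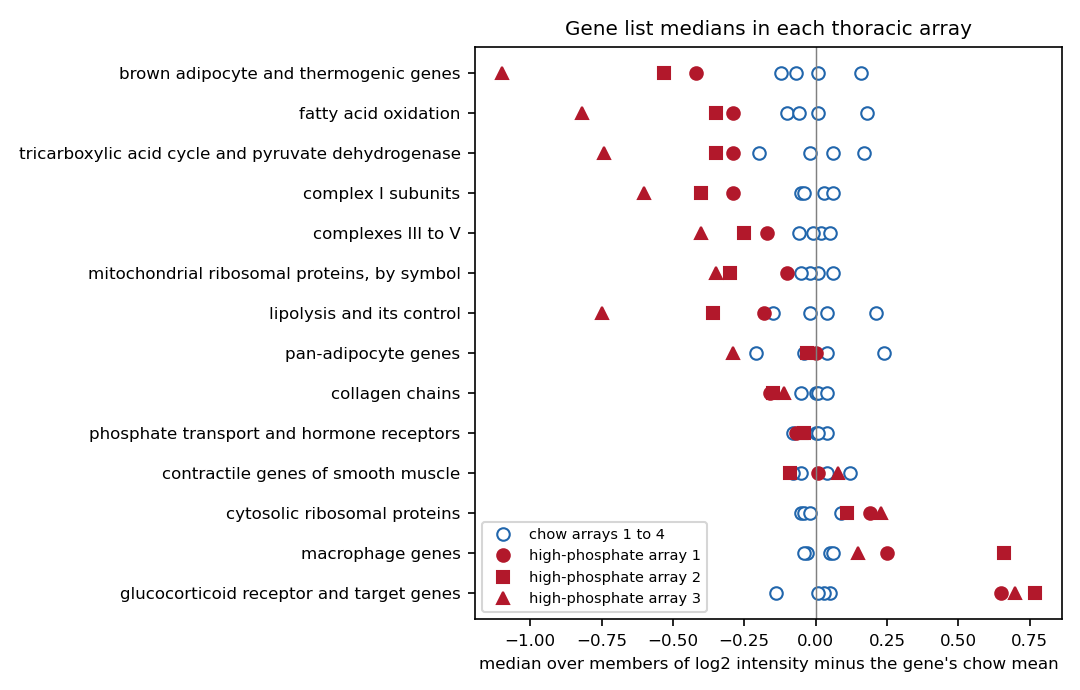
Median over the members of each gene list of the log2 intensity minus the gene's chow mean, with 1 point for each of the 4 chow arrays (open circles) and 3 high-phosphate arrays (filled symbols). For complex I the HPD arrays lie at -0.29, -0.40 and -0.60 against -0.05 to 0.06 on chow, for the glucocorticoid list at 0.65 to 0.77, and for phosphate transport genes among the chow arrays.

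Genes that make triglycerides and control their breakdown fell in part. Of 15 measured genes of triglyceride synthesis 5 fell and 0 rose, with a median change of -0.23. Agpat2, which adds the second fatty acid to glycerol, measured 7.51, 7.05 and 6.55 on high phosphate and 9.02, 8.99, 8.48 and 8.74 on chow. Mogat1, which acylates monoglycerides, measured 5.90, 5.87 and 5.75 against 6.67, 6.43, 6.53 and 6.70 and fell 1.67-fold (-0.74 ± 0.105, adjusted p = 0.00206). Both were lower in every HPD array. The acyltransferases Gpat3, Gpam and Agpat3 fell by 1.03 ± 0.199, 0.68 ± 0.146 and 0.55 ± 0.0999 on the log2 scale and lost their calls without HPD array 3 and, for Gpat3 and Gpam, without HPD array 2 (adjusted p up to 0.113), and Gpam also without SCD array 1 or SCD array 2. The list had 3 falls without HPD array 2 and 2 without HPD array 3.

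Of 18 genes of lipolysis and its control 5 fell and 0 rose, with a median change of -0.32. Ptger3, a prostaglandin receptor that restrains lipolysis, measured 7.81, 7.52 and 7.73 on high phosphate and 8.51, 8.46, 8.29 and 8.57 on chow, with no overlap, and fell 1.71-fold (-0.77 ± 0.101, adjusted p = 0.00133). The lactate receptor Hcar1 measured 7.10, 7.04 and 6.45 against 7.91, 7.65, 7.77 and 7.63, and its relative Hcar2, a receptor for ketone bodies, 6.36, 6.53 and 6.09 against 7.02, 6.82, 7.02 and 6.87. Both receptors, which also restrain lipolysis, were lower in every HPD array and fell by 0.88 ± 0.186 and 0.61 ± 0.133. The monoglyceride lipase Mgll fell by 0.86 ± 0.157, and Prkar2b, which holds protein kinase A inactive, by 1.33 ± 0.293. These last 4 calls ended without HPD array 3 (adjusted p up to 0.126). The list had 3, 1, 2 and 3 falls without HPD array 2, HPD array 3, SCD array 1 and SCD array 4.

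Genes of fatty acid synthesis spread widely on chow. The synthase Fasn measured 8.87, 8.53 and 7.56 on high phosphate and 10.83, 10.15, 8.84 and 10.76 on chow, so that SCD array 3 lay among the HPD arrays, and its change was -1.82 ± 0.495 (adjusted p = 0.0697). The desaturase Scd1 changed by -0.61 ± 0.326 (adjusted p = 0.444). Of 16 measured members 1 fell and 0 rose, with a median of -0.53. Without SCD array 3 3 fell, and Fasn was among the called genes (adjusted p = 0.0173). The gene that fell in the fit with all arrays was Elovl5, an elongase of polyunsaturated fatty acids, which measured 9.08, 9.09 and 8.93 against 9.73, 9.50, 9.54 and 9.66 and fell 1.49-fold (-0.58 ± 0.102, adjusted p = 0.00847).

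Oxidation of fatty acids in mitochondria gave falls and no rise. Of 20 measured members 7 fell and 0 rose, with a median change of -0.48 and negative values in 19. Cpt2, which hands fatty acids to the matrix, measured 9.50, 9.36 and 8.76 on high phosphate and 10.20, 10.35, 10.07 and 10.01 on chow and fell 1.94-fold (-0.96 ± 0.165, adjusted p = 0.00717). Hadha, of the trifunctional protein, measured 10.73, 10.81 and 10.05 against 11.36, 11.59, 11.09 and 11.34 and fell 1.76-fold (-0.81 ± 0.151, adjusted p = 0.0113). Both were below chow in every HPD array and lowest in array 3. Acaa2, the thiolase of the last step, and Etfdh, which passes the electrons on, fell by 0.69 ± 0.157 and 0.53 ± 0.107 on the log2 scale, and lost their calls without HPD array 3, SCD array 1, SCD array 2 or, for Acaa2, SCD array 4 (adjusted p up to 0.122). The list had 4, 2, 2, 2 and 4 falls without HPD array 2, HPD array 3, SCD array 1, SCD array 2 and SCD array 4.

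Of 28 measured genes of the tricarboxylic acid cycle and pyruvate dehydrogenase 10 fell and 0 rose, with a median change of -0.46. Suclg1, a subunit of succinyl-CoA ligase, measured 10.13, 9.85 and 9.63 on high phosphate and 10.73, 10.88, 10.64 and 10.74 on chow and fell 1.83-fold (-0.88 ± 0.118, adjusted p = 0.00154). The groups were apart. Idh3a, of isocitrate dehydrogenase, measured 10.08, 9.50 and 8.88 against 10.68, 10.84, 10.33 and 10.56 and fell 2.17-fold (-1.12 ± 0.217, adjusted p = 0.0142), but not without HPD array 2, HPD array 3 or SCD array 1 (adjusted p up to 0.0524). Citrate synthase Cs and malate dehydrogenase Mdh2 fell by 0.47 ± 0.11 and 0.45 ± 0.0939, with calls that ended without HPD array 3, SCD array 1, SCD array 2 or SCD array 4 and, for Cs, HPD array 2 (adjusted p up to 0.163). The count of the list was 3, 1, 1, 2 and 2 without those 5 arrays, in the order HPD array 2, HPD array 3, SCD array 1, SCD array 2 and SCD array 4.

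Subunits of complex I, which takes electrons from NADH, gave the largest share of calls of any list with more than 3 members. Of 32 measured 20 fell and 0 rose, with a median change of -0.42 and negative values in 31. The list median was -0.29, -0.40 and -0.60 in HPD arrays 1, 2 and 3, against -0.05 to 0.06 on chow. Each HPD array thus lay well below every chow array. The count of calls depended on the arrays used, with 8, 4, 5, 6 and 9 falls without HPD array 2, HPD array 3, SCD array 1, SCD array 2 and SCD array 4, while the median without HPD array 3 was still -0.35.

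Ndufa11 measured 9.46, 9.38 and 9.58 on high phosphate and 10.07, 10.25, 10.15 and 10.08 on chow and fell 1.58-fold (-0.66 ± 0.0961, adjusted p = 0.00236). Ndufs8, an iron-sulfur subunit, measured 8.25, 8.30 and 7.83 against 8.95, 9.08, 8.69 and 8.95 and fell 1.73-fold (-0.79 ± 0.133, adjusted p = 0.00631). Ndufa8 measured 9.48, 9.28 and 9.19 against 9.87, 9.97, 9.76 and 9.84 and fell 1.45-fold (-0.54 ± 0.0946, adjusted p = 0.00792). None of these overlapped, and in Ndufa11 it was not array 3 that was lowest. A dimmer probe set of Ndufa11 changed by only -0.14, and one of Ndufa8 by -0.47. Ndufaf5, an assembly factor of the complex, measured 7.57, 7.25 and 7.16 against 8.20, 8.05, 7.96 and 8.03 and fell 1.66-fold (-0.73 ± 0.102, adjusted p = 0.0019).

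Of 34 measured subunits of complexes III to V 11 fell and 0 rose, with a median change of -0.27 and negative values in 33. The small subunits of ATP synthase Atp5k and Atp5e fell by 0.43 ± 0.0718 and 0.37 ± 0.0639 on the log2 scale (adjusted p = 0.00631 and 0.00785). Atp5e measured 11.66, 11.49 and 11.53 on high phosphate and 11.92, 11.89, 11.96 and 11.93 on chow, so that its groups did not overlap. Uqcrq of complex III and the electron carrier cytochrome c, Cycs, fell by 0.60 ± 0.109 and 0.51 ± 0.101, without HPD array 3 no longer past the threshold, and for Cycs nor without SCD array 1 (adjusted p up to 0.0751). The list had 7, 2, 3, 6 and 5 falls without HPD array 2, HPD array 3, SCD array 1, SCD array 2 and SCD array 4.

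Proteins of the mitochondrial ribosome, taken by symbol after values were seen, fell in 7 of 71 cases, rose in 0 and had negative changes in 69, with a median of -0.24. Mrpl12, which also binds the mitochondrial RNA polymerase, measured 6.99, 6.77 and 6.97 on high phosphate and 7.62, 7.69, 7.60 and 7.55 on chow and fell 1.64-fold (-0.71 ± 0.104, adjusted p = 0.00245). Mrpl19 measured 6.01, 5.93 and 5.98 against 6.46, 6.52, 6.31 and 6.51 and fell 1.39-fold (-0.48 ± 0.0844, adjusted p = 0.00834). In both, all HPD arrays lay together below chow. The count was 2, 2, 2, 3 and 3 without HPD array 2, HPD array 3, SCD array 1, SCD array 2 and SCD array 4, and 13 without HPD array 1. Of 11 genes of coenzyme Q synthesis, also taken by symbol, 4 fell and 0 rose, with a median of -0.16, and Coq10a, a chaperone of the coenzyme, fell by 0.69 ± 0.142 on the log2 scale (adjusted p = 0.0188). Without HPD array 2, HPD array 3, SCD array 1 or SCD array 2 the count of this family was 0. Gpd2, the glycerol phosphate shuttle of the inner membrane, measured 8.97, 8.91 and 8.43 against 9.96, 10.11, 9.40 and 9.64 and fell 2.01-fold (-1.0 ± 0.175, adjusted p = 0.00785).

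The cytosolic ribosome gave a few rises. Of 30 measured proteins 4 rose and 0 fell, with a median change of 0.16 and positive values in 28. Rps18 measured 11.06, 11.06 and 11.13 on high phosphate and 10.66, 10.72, 10.75 and 10.64 on chow, with no overlap, and rose 1.31-fold (0.39 ± 0.0654, adjusted p = 0.00613). Rps6 and Rpl10a rose by 0.28 ± 0.0563 and 0.49 ± 0.101, with calls that ended without HPD array 3 or SCD array 1, among others (adjusted p up to 0.102). The count was 2, 1, 1, 2 and 2 without HPD array 1, HPD array 3, SCD array 1, SCD array 2 and SCD array 4. The other 2, dimmer probe sets of Rps18 changed by 0.05 and -0.16, so its probe sets disagree. Near-identical copies of ribosomal protein genes could share probe signal.

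Genes of sterol metabolism moved in both directions. Of 22 measured members 2 fell and 2 rose, with a median change of -0.04, and 0 rose without HPD array 2 and 1 without HPD array 1, SCD array 1 or SCD array 4. Hmgcs1 measured 9.02, 8.60 and 8.55 on high phosphate and 9.88, 10.05, 9.86 and 9.73 on chow and fell 2.24-fold (-1.16 ± 0.145, adjusted p = 0.000941). Insig1, which retains the sterol sensor in the endoplasmic reticulum, measured 9.24, 9.02 and 8.95 against 10.41, 10.12, 9.79 and 10.43 and fell 2.17-fold (-1.12 ± 0.154, adjusted p = 0.00187). Both were lower in every HPD array, and both calls were kept in all 7 fits with an array left out. The cholesterol exporter Abca1 measured 9.01, 9.30 and 9.02 against 8.70, 8.64, 8.41 and 8.45 and rose by 0.56 ± 0.105 (adjusted p = 0.0115), but not without HPD array 2 (adjusted p = 0.0623). Fdft1, the squalene synthase gene, rose by 0.49 ± 0.103, a call that ended without HPD array 1, HPD array 2, SCD array 1 or SCD array 4 (adjusted p up to 0.0973). Of 27 genes of hypoxia and glycolysis 3 fell and 0 rose (median -0.17), with 1 fall without HPD array 3 and 6 without SCD array 3. One of the 3, the lactate and ketone body carrier Slc16a1, measured 7.29, 7.05 and 6.28 against 8.36, 8.61, 7.71 and 8.10 and fell 2.50-fold (-1.32 ± 0.249, adjusted p = 0.0121), though not without HPD array 3 (adjusted p = 0.0558).

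Genes of iron handling changed in part. Tfrc, the transferrin receptor, measured 8.05, 7.01 and 6.77 on high phosphate and 9.18, 8.90, 9.02 and 8.89 on chow, with HPD array 1 closest to chow and still below it. Aco1, a cytosolic aconitase that also binds the messenger RNAs of iron genes, measured 9.04, 8.98 and 8.37 against 9.83, 9.80, 9.35 and 9.51 and fell by 0.82 ± 0.166 on the log2 scale (adjusted p = 0.0177). Glrx5, of iron-sulfur cluster assembly, fell by 0.43 ± 0.106, while the mitochondrial iron importer Slc25a28 and the ferroxidase Cp rose by 0.46 ± 0.0901 and 0.55 ± 0.137. These last 4 calls ended without HPD array 3 or SCD array 1, among others (adjusted p up to 0.206). Of 29 measured members 3 fell (10.3%, against 1.08% of all genes) and 2 rose (6.9%, against 1.39%), with a median change of -0.11. Without HPD array 3 or SCD array 1 the counts were 1 and 0.

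Genes of macrophages rose in part. Of 24 measured members 3 rose (12.5%, against 1.39% of all genes) and 0 fell, with a median change of 0.29. The list median was 0.25, 0.66 and 0.15 in HPD arrays 1, 2 and 3, against -0.04 to 0.06 on chow. HPD array 2 stood well above the other arrays. Ms4a4a, of the membrane-spanning 4A family, measured 7.13, 8.05 and 6.99 against 6.16, 5.54, 5.51 and 5.60. The hyaluronan receptor Lyve1, found on resident macrophages and lymphatic vessels, measured 9.34, 9.48 and 9.29 against 8.78, 8.84, 8.32 and 8.59 and rose by 0.74 ± 0.161 (adjusted p = 0.0254). The coagulation factor gene F13a1 rose by 0.71 ± 0.159 (adjusted p = 0.0279). The calls of Lyve1 and F13a1 ended without HPD array 2, SCD array 1, SCD array 3 or SCD array 4, among others (adjusted p up to 0.108), and the list had 1 rise without any 1 of these 4 and 2 without HPD array 3 or SCD array 2. The scavenger receptor Cd163 measured 8.77, 9.88 and 8.67 against 8.11, 8.27, 7.70 and 8.10, with a change of 1.06 ± 0.274 (adjusted p = 0.0551), and Cd68 changed by 0.80 ± 0.279 (adjusted p = 0.177).

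Among secreted signals and their receptors some genes passed the test. The B cell chemokine Cxcl13 measured 9.71, 11.10 and 10.21 on high phosphate and 8.01, 7.23, 9.21 and 8.13 on chow. Its groups did not overlap, but the spread was wide, and the rise (adjusted p = 0.0442) was lost without HPD array 2, HPD array 3, SCD array 1, SCD array 2 or SCD array 4 (adjusted p up to 0.187). It was the only one of 47 measured chemokine and receptor genes that passed in either direction (2.13%). That share is near the 2.47% of all genes called. Il22ra2, which traps interleukin-22, measured 6.0, 5.82 and 6.46 against 4.46, 3.92, 4.07 and 4.70 and rose (adjusted p = 0.0182), but not without HPD array 3 or SCD array 2 (adjusted p up to 0.0869). Osmr, the receptor of oncostatin M, rose by 0.68 ± 0.151, and the complement gene C4b by 0.77 ± 0.184, and both calls ended without HPD array 2 or HPD array 3, among others (adjusted p up to 0.17). The immune checkpoint ligand Cd274 measured 7.44, 7.27 and 6.72 against 8.03, 8.29, 8.32 and 8.05 and fell 2.05-fold (-1.03 ± 0.167, adjusted p = 0.00479). Of 13 T and NK cell genes and 13 B and plasma cell genes, 0 were called, which is near the background in lists of this size. The T and NK cell list mean lay between 5.49 and 5.77 in the 7 thoracic arrays.

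In the wall itself the contractile list did not shift. Of 36 measured genes 3 rose and 0 fell, with a median change of -0.01. Acta2 measured 11.85, 11.78 and 11.99 on high phosphate and 11.91, 11.91, 12.08 and 12.02 on chow, with a change of -0.11 ± 0.135. Synm, an intermediate filament protein, measured 7.84, 7.71 and 7.70 against 6.83, 7.16, 6.80 and 6.95 and rose 1.76-fold (0.82 ± 0.128, adjusted p = 0.00399), with no overlap. The other 2 were Des, the filament protein desmin (0.36 ± 0.082, adjusted p = 0.0294), and Pln, the brake on the calcium pump of muscle (0.87 ± 0.189, adjusted p = 0.024), and both calls ended without HPD array 2, SCD array 1 or SCD array 4, among others (adjusted p up to 0.128). The list had 1 rise without any 1 of these 3 arrays.

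Some genes of striated and heart muscle rose beside them. Of 20 genes of the skeletal muscle list, however, 0 rose and 1 fell (5%, against 1.08% of all genes), with a median change of 0.315. Of 18 genes of the cardiac list 2 rose, Nppa and Pln (11.1%, against 1.39% of all genes), and 0 fell, with a median change of 0.11. Without HPD array 2, SCD array 1 or SCD array 4 0 of the cardiac list rose. Outside these lists, Ankrd1, a stretch-responsive cofactor of the heart, measured 10.32, 10.86 and 10.48 on high phosphate and 9.55, 9.06, 9.81 and 9.51 on chow and rose 2.10-fold (1.07 ± 0.18, adjusted p = 0.00631). The titin cap gene Tcap measured 7.33, 7.66 and 7.38 against 6.61, 6.71, 7.01 and 6.95 and rose 1.56-fold (0.64 ± 0.109, adjusted p = 0.00691). Lmod2, which builds thin filaments, measured 8.81, 9.57 and 8.67 against 7.81, 7.19, 8.19 and 7.99 and rose 2.33-fold (1.22 ± 0.248, adjusted p = 0.0178). These 3 did not overlap, HPD array 2 was highest in each, and the call of Lmod2 ended without HPD array 2 or SCD array 1 (adjusted p up to 0.0871). The natriuretic peptide gene Nppa rose by 1.15 ± 0.255 (adjusted p = 0.0264), with HPD array 3 and SCD array 3 equal at 7.75, and its call ended without HPD array 1, HPD array 2, SCD array 1 or SCD array 4 (adjusted p up to 0.133). The mean of 18 cardiac genes was 7.64, 7.92 and 7.65 in the HPD arrays and 7.21 to 7.79 on chow, and the heart myosin Myh6 measured 9.50, 10.36 and 9.19 against 8.84, 8.76, 9.56 and 9.02. The part of heart tissue in these rises was not tested.

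A few collagen genes fell. Of 28 measured chains 4 fell and 0 rose, with a median change of -0.16, and the list median was -0.16, -0.15 and -0.11 in the HPD arrays against -0.05 to 0.04 on chow. Col6a3 measured 7.00, 7.01 and 7.00 on high phosphate and 7.77, 7.74, 7.57 and 7.69 on chow and fell 1.61-fold (-0.69 ± 0.0914, adjusted p = 0.00145). P4ha1, which hydroxylates collagen prolines, measured 7.57, 7.56 and 7.55 against 8.14, 8.02, 7.89 and 8.14 and fell 1.4-fold (-0.49 ± 0.0894, adjusted p = 0.00997). In both the 3 HPD arrays differed from each other far less than the chow arrays did. The fibrillar chains Col3a1 and Col1a1 and the basement membrane chain Col15a1 fell by 0.60 ± 0.121, 0.49 ± 0.12 and 0.65 ± 0.138 on the log2 scale, and lost their calls without HPD array 3 or SCD array 4, among others (adjusted p up to 0.169). The list had 2, 1, 2 and 1 falls without HPD array 1, HPD array 3, SCD array 1 and SCD array 4. Of 22 elastic fibre genes 0 passed (median -0.10), which is near the background of 2.47% of all genes called.

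Endothelial genes split. The junction protein Pecam1 measured 9.79, 9.73 and 9.84 on high phosphate and 9.47, 9.38, 9.38 and 9.48 on chow and rose by 0.36 ± 0.0716 (adjusted p = 0.0169). The receptor Kdr, for vascular endothelial growth factor, and the factor Sox18 fell by 0.59 ± 0.146 and 0.57 ± 0.138 on the log2 scale. All 3 genes separated the groups, and all 3 calls ended without HPD array 3 and, for Kdr and Sox18, without any array but SCD array 3 (adjusted p up to 0.198). Of 26 measured members 1 rose and 2 fell, with a median of -0.10. Of 36 genes of vascular tone 2 rose and 2 fell, and in each fit with 1 thoracic array left out 0 or 1 rose and 0 or 1 fell. Angiotensin converting enzyme Ace measured 8.92, 9.21 and 9.23 against 8.56, 8.52, 8.46 and 8.53 and rose by 0.60 ± 0.136 (adjusted p = 0.0287), and Ramp1, a partner of the receptor of calcitonin gene-related peptide, fell by 0.46 ± 0.0879 (adjusted p = 0.0137). The call of Ace ended without any array but HPD array 1, and that of Ramp1 without HPD array 3 or SCD array 1 (adjusted p up to 0.122). Grk3, a kinase that desensitises receptors, measured 7.12, 6.37 and 6.33 against 7.65, 8.06, 7.58 and 7.45 and fell 2.11-fold (-1.08 ± 0.169, adjusted p = 0.00399).

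The genes that handle phosphate and mineral did not pass the test. Of 20 genes of phosphate transport and its hormones 0 were called (median -0.04), of 19 calcification inhibitors and genes of pyrophosphate metabolism 0 (median 0.01), and of 23 osteochondrogenic genes 0 (median 0.01). Their counts were also 0 in each of the 7 fits with an array left out. With 2.47% of all genes called, a count of 0 in lists of this size is near the background and is no result about their members.

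The phosphate importer Slc20a1 measured 7.71, 7.56 and 7.49 on high phosphate and 7.46, 7.61, 7.26 and 7.39 on chow, with a change of 0.15 ± 0.159. Its relative Slc20a2 measured 7.34, 7.39 and 7.24 against 7.46, 7.74, 7.09 and 7.39 (-0.10 ± 0.145), and the exporter Xpr1 9.27, 9.28 and 9.30 against 9.25, 9.18, 9.50 and 9.36 (-0.04 ± 0.0822). All 3 overlapped. The vitamin D receptor gene Vdr measured 5.84, 6.01 and 5.93 against 5.82, 5.70, 5.69 and 5.72 (0.19 ± 0.0961, adjusted p = 0.398), and the endopeptidase Phex 5.62, 5.75 and 5.65 against 6.24, 5.98, 5.96 and 6.04 (-0.38 ± 0.167, adjusted p = 0.324). These last 2 separated the groups without passing.

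Among inhibitors the matrix Gla protein gene Mgp measured 12.34, 12.28 and 12.56 against 12.14, 12.10, 12.45 and 12.29 (0.15 ± 0.134). The pyrophosphate exporter Ank changed by -0.11 ± 0.129, the transporter Abcc6 by -0.03 ± 0.107 and the phosphatase Alpl, which degrades pyrophosphate, by -0.34 ± 0.113 (adjusted p = 0.142). Alpl was the only one of these 4 whose HPD arrays (6.79, 6.74 and 6.49) all lay below its SCD arrays (7.19, 6.94, 6.91 and 7.02). Of the bone and cartilage genes Bmp6 measured 7.93, 7.68 and 7.95 against 7.37, 7.46, 7.34 and 7.29 and changed by 0.49 ± 0.157 (adjusted p = 0.133), Bmp2 by -0.26 ± 0.11 (adjusted p = 0.292) and the cartilage factor Sox9 by -0.06 ± 0.0767 (adjusted p = 0.847).

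Of 3 genes of the imprinted Peg3 domain, grouped by symbol after values were seen, 2 rose. The paternally expressed zinc finger gene Peg3 measured 9.29, 9.50 and 9.25 on high phosphate and 8.20, 8.43, 8.64 and 8.14 on chow and rose 1.99-fold (1.00 ± 0.187, adjusted p = 0.012), but not without HPD array 2 (adjusted p = 0.0605). Its imprinted neighbour Zim1 measured 7.65, 7.93 and 7.58 against 6.56, 6.90, 6.51 and 6.40 and rose 2.18-fold (1.13 ± 0.139, adjusted p = 0.00091). Both were higher in all HPD arrays. Other large changes belonged to no list. Zdhhc23, a palmitoyltransferase, measured 7.91, 7.77 and 7.72 against 6.49, 6.64, 6.03 and 6.58 and rose 2.57-fold (1.36 ± 0.135, adjusted p = 0.000335). Galnt15, which adds sugars to proteins, measured 7.22, 7.46 and 7.75 against 6.17 to 6.31 and rose 2.35-fold (1.23 ± 0.145, adjusted p = 0.000652). Lctl, of the klotho family, measured 6.65, 6.96 and 6.64 against 7.79, 7.77, 7.57 and 8.25 and fell 2.14-fold (-1.10 ± 0.166, adjusted p = 0.0031). These also separated the groups.

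Set beside the abdominal aorta, the thoracic calls went the same way. In the abdominal comparison 1554 genes were called (7.01%), 432 higher (1.95%) and 1122 lower (5.06%). Called in both segments, in the same direction, were 395 genes, which is 72.1% of the thoracic and 25.4% of the abdominal calls, and 0 were called in opposite directions. Of the 548 thoracic calls 531 had the same sign in the abdominal aorta. The share over all genes was not computed for this count or for the sizes of change that follow. Of the 216 shared falls 167 were larger in the abdominal aorta, and of the 179 shared rises 29 were. The difference between the diet changes of the segments was called for 0 genes by limma, with a lowest adjusted p of 0.705, while 1217 genes (5.49%) had an unadjusted p under 0.05. Without abdominal HPD array 3 1 gene was called for the difference. Leaving out the 5 abdominal arrays with high T and NK cell genes leaves 1 abdominal HPD array, array 3. Its hepatocyte list mean was 8.13, against 5.87 and 5.96 in the remaining abdominal SCD arrays. Calls of that fit are given only among the alternative settings below and are not read as differences. In the fit of all 15 arrays no gene passed, and the 153 genes called in the thoracic but not in the abdominal aorta are no evidence of a difference.

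**Figure D5:**
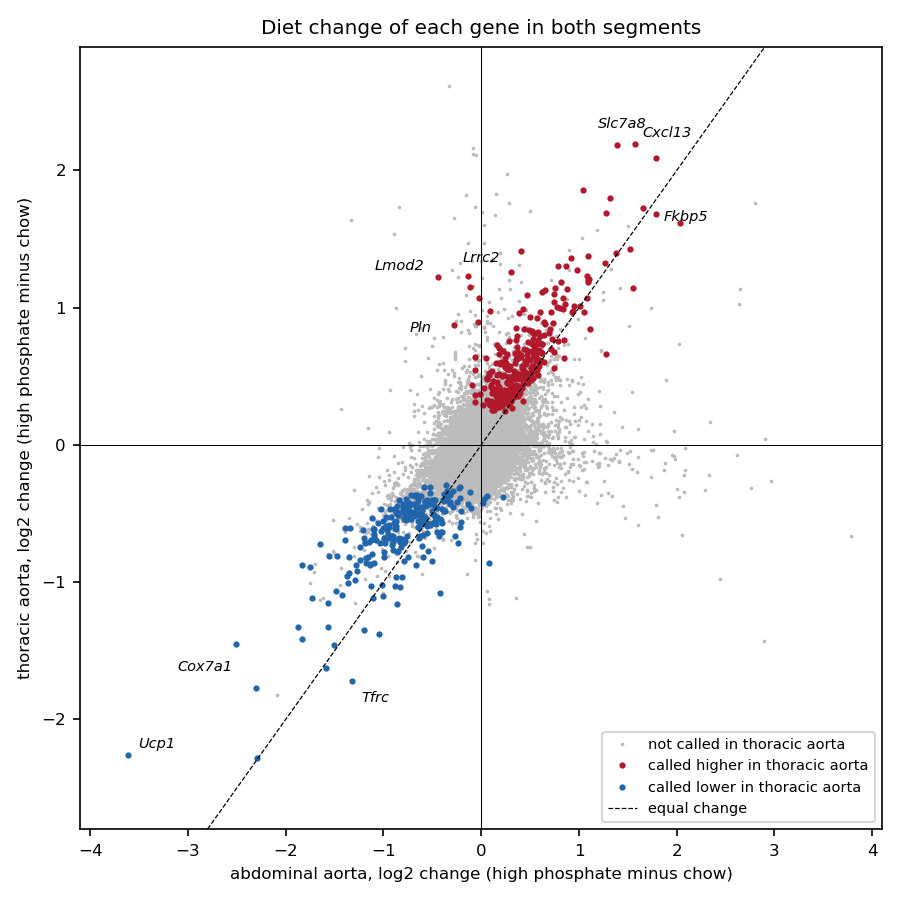
Diet change of each of 22180 genes in the abdominal (x axis) and the thoracic aorta (y axis), as log2 differences between high phosphate and chow, with the 309 genes called higher in the thoracic aorta in red and the 239 called lower in blue. Most called genes lie in the quadrants of equal sign, and Lmod2, Lrrc2 and Pln lie to the left of the vertical axis with thoracic changes of 0.87 to 1.23.

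The genes with the smallest p for that difference are given as values. The fibroblast and pericyte gene Cd248 changed by -0.22 ± 0.127 in the thoracic and -1.15 in the abdominal aorta (difference 0.93 ± 0.173, unadjusted p = 7.91e-05). Collagen genes were among them, with Col3a1 at -0.60 and -1.39 (difference 0.79 ± 0.165) and Col1a2 at -0.24 and -1.04 (difference 0.81 ± 0.177). Muscle genes were too, with Lmod2 at 1.22 and -0.44 (difference 1.66 ± 0.337), Lrrc2 at 1.23 and -0.14 (difference 1.37 ± 0.299), Ankrd1 at 1.07 and -0.02, Tcap at 0.64 and -0.07 and Pln at 0.87 and -0.28. In the other direction the potassium channel gene Kcnk5 changed by -0.12 and 0.41 and the lymphatic vessel gene Mmrn1 by 0.12 and 0.80. All had an adjusted p of at least 0.705 for the difference by limma. The abdominal arrays differ in genes of other tissues. Their T and NK cell list mean ran from 5.60 to 7.92 and their hepatocyte list mean from 5.83 to 9.97. Without the 5 arrays high in T and NK cell genes 1 abdominal HPD array is left, too few for a test. The part of hepatocyte genes in the difference was not tested.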

How the data were processed

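Gene expression was measured on 15 arrays (1-colour) of segments of mouse aorta, 7 of them thoracic. The authors deposited 1 log2 value per probe set and array. RMA and Partek are named in the submitters' processing notes, with no version or order, and the log base was taken from the range of the values, which run from 1.381 to 13.33 with array medians of 5.78 to 5.84. Of 41345 probe sets 23521 name 1 gene in the platform annotation, 1814 several, and 16010 are not listed there. The brightest probe set by its mean over the 15 arrays stood for each gene, which left 22180 genes, 1082 of them with several probe sets. Dimmer probe sets of Gpat3, Dio2 and Fam107a changed much less than the one used, by -0.17, -0.36 and 0.53. Those of Atp5e, Glrx5 and Mrpl12 came closer to it, with changes of -0.39, -0.45 and -0.54. Old platform symbols were looked up in RefSeq, where 23328 matched and 0 changed.

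A linear model with a mean for each of the 4 groups of segment and diet was fitted to all 15 arrays with limma 3.58.1 in R 4.3.3 (lmFit, and eBayes with an intensity trend), with 11 residual degrees of freedom. P-values were adjusted by Benjamini-Hochberg over all genes and are two-sided. They weigh a difference of group means against the spread between arrays within the 4 groups, abdominal arrays included. The fit was tested on simulated data, with independent noise of equal spread in all arrays. That simulation could not show the effect of arrays that carry genes of other tissues. Tables were read with the data.table package (1.17.8) and pandas 2.3.3, and plots drawn with matplotlib 3.10.9.

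The comparison and the gene lists were chosen with earlier results of these data known. Genes named were drawn by rule from the 30 called genes that rose most and the 30 that fell most with no overlap of arrays, up to 8 members of each list with the smallest p, members of the brown fat, glucocorticoid, clock and mineral lists (not every member is given), the 15 smallest p in each direction for the difference between segments, and defining markers. Predicted genes, Rik clones and probe sets without a single gene were counted only. Promoters are RefSeq's first listed window of each gene on GRCm38.p6, and the motif letters were read from the 250 bases before the start. Whether equal replicate numbers mark shared mice is not given in the sources used here. The deviations of equally numbered thoracic HPD and SCD arrays from their group means correlated, across genes, by 0.0627, 0.0256 and 0.17. These arrays are of different diets and cannot show whether segments share mice. Between thoracic and abdominal arrays of equal diet and number the correlations were 0.122, 0.0788 and 0.0308 on high phosphate. On chow they were 0.0461, 0.0295, 0.0691 and 0.0478. These values do not settle whether mice were shared, and the numbers were not taken as pairs.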

Additional observations from a re-analysis of the deposited data

Results flagged for a closer look

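Of 191 groups of 4 chow arrays tested, 6 held 1 array whose gap to the nearest other array was large for the range of the group, which chance gives in about 1 in 20 groups. In SCD array 3 the airway gene Scgb1a1 stood at 11.74, against 4.70 to 5.04 in the other chow arrays, the mean of the lung and airway list at 6.03, against 4.84 to 4.85, and the mean of the skeletal muscle list at 6.27, against 5.60 to 5.67. In SCD array 2 the acyltransferase gene Agpat3 stood at 8.43, against 8.14 to 8.16, and the ferroxidase gene Cp at 9.15, against 9.43 to 9.48. In SCD array 1 Ms4a4a stood at 6.16, against 5.51 to 5.60. Groups of 3 arrays are too small for this rule and were not tested, so it says nothing of the HPD arrays.

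A small part of the probe sets that name no gene or several genes passed the test too. Of 17824 such probe sets 22 were called higher and 9 lower in the thoracic aorta by limma at an adjusted p under 0.05. They were fitted and adjusted apart from the genes, of which 2.47% were called.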

How the results depend on the processing

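The 548 thoracic calls (309 higher, 239 lower) became 907 with array weights, 992 at an adjusted p under 0.1, and between 209 and 541 when 1 thoracic array was left out. With 2 alternatives chosen after seeing the data, the count was 245 without both thoracic arrays numbered 3 and 290 with the skeletal muscle list mean as a covariate. It stayed within 1.5 times of 548 with no intensity trend (461), without dim genes (694), with quantile normalization (600) or median centring (442), with all probe sets of a gene averaged (541), with the pan-adipocyte mean as a covariate (557, of which 68.6% higher), with an unadjusted p under 0.05 and a 1.5-fold change (444), and with the 7 thoracic arrays alone (391). No gene was called in the opposite direction in a fit with 1 array left out. Ucp1 was not called without both arrays numbered 3 (change -1.95, adjusted p = 0.065, limma).

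The 0 calls for the difference between segments became 256 by unadjusted p and fold change, 0 to 1 when 1 of the 15 arrays was left out, and 43, all lower, without the 5 abdominal arrays with high T and NK cell genes. The fit without those 5 arrays leaves 1 abdominal HPD array, array 3, whose hepatocyte list mean was 8.13. That is too few arrays for a test, so the calls of that fit are no evidence of a difference between segments. Equal replicate numbers are not shown to be pairs. With the number as a replicate block 646 thoracic genes were called (306 higher, 340 lower) and 0 for the difference, and with diet and number as a random block across segments 551 thoracic genes. The causes of these shifts were not tested. The number of arrays, 3 and 4, limits all counts.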
